A study of Mus musculus with 4 samples.

Results

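RNA crosslinked to MSI2 in mouse intestinal epithelium was listed separately for wild-type (WT) and TRE-Msi2 animals, and the peaks described here are those of the WT list that had no counterpart in the TRE-Msi2 list. A peak was included if it was narrower than 1000 nt, if no TRE-Msi2 peak overlapped it by 1 base on the same strand, and if it touched the span of a protein-coding gene on mm10. The TRE-Msi2 list was the longer one, with 16939 peaks against 12061 in WT. The conditions left 734 of the 12061 WT peaks, or 9.45% of the 7767 WT peaks of that width over protein-coding genes. They touched 731 genes, 16.4% of the 4449 protein-coding genes with a WT peak. The remaining 7033 peaks of that width over such genes had a TRE-Msi2 overlap and are called shared below. With the TRE-Msi2 list cut by score to the length of the WT list, 2126 WT peaks met the conditions. The 734 members were chosen on the presence of a peak in one list and its absence from the other. That difference is therefore given as a description and was not tested.

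The material came from 4 CLIP-seq libraries, 2 per genotype, all labelled as intestinal epithelial cells on a C57BL6 background and precipitated with an MSI2 antibody. Per the labels' protocols, the TRE-Msi2 mice received doxycycline for 24 hours and gave total epithelium, whereas crypts were taken from WT mice, for which no doxycycline is recorded; genotype, fraction and drug cannot be told apart. TRE is a tetracycline response element, a promoter that drives its transgene when doxycycline and a matching transactivator are present; the labels name no transactivator, age or number of mice. Each genotype has 1 pooled peak list of 2 libraries, which the labels do not say came from separate mice; there is therefore no replicate spread, no test between genotypes was possible, the depth is unknown, and intervals cover counting error alone. Of the cell type markers checked, all 6 enterocyte genes (Fabp2, Apob, Sis, Dpp4, Anpep and Alpi) had peaks in both lists and the 3 stromal genes (Col1a1, Vim and Pdgfra) had 0 in both. The Paneth genes Lyz1, Defa24, Defa17 and Reg3g and the goblet genes Muc2, Fcgbp, Zg16 and Clca1 also had peaks in both lists. Markers of the other cell types were mixed. Of the enteroendocrine genes, Chgb and Cck had 1 in each list, Chga 0 in WT and 1 in TRE-Msi2, and Tac1 1 and 0. The immune gene Ptprc, the stem cell gene Ascl2 and the tuft cell gene Trpm5 had 0 peaks in both lists. The immune gene Cd74 had 3 in each, and the stem cell genes Lgr5 and Olfm4 had 1 in each and 3 against 2. The tuft cell gene Dclk1 had 2 in WT and 0 in TRE-Msi2.

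MSI2 is a Musashi family protein that binds single-stranded RNA through a pair of RNA recognition motifs, with a preference for sites built around UAG, often in the untranslated end of messenger RNAs. Musashi proteins are known as regulators of translation and RNA stability in stem and progenitor cells. In CLIP-seq, ultraviolet light joins protein and RNA, and a peak caller such as Piranha counts the reads in bins and reports bins with more reads than a fitted background. A bin can therefore pass in one list and fall just short in another, and a peak can reflect how abundant a transcript is as well as how much of it is bound.

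WT-only peaks lay across the annotated start of 2 short genes, Lyz1, the lysozyme gene of Paneth cells, and D17H6S56E-5, with scores of 18 and 15. The 250 bases before each start are printed because peaks at gene starts were rare here. The first is chr10:117292869-117293118, minus strand, and the second chr17:35000747-35000996, minus strand, both from RefSeq promoter windows of GRCm38.p6; capitals mark the bases under the WT-only peak.
Lyz1: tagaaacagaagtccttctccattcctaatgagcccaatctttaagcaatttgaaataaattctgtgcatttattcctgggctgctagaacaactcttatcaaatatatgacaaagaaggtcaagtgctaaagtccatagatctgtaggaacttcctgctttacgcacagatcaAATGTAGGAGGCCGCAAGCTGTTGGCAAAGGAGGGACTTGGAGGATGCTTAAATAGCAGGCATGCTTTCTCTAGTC
D17H6S56E-5: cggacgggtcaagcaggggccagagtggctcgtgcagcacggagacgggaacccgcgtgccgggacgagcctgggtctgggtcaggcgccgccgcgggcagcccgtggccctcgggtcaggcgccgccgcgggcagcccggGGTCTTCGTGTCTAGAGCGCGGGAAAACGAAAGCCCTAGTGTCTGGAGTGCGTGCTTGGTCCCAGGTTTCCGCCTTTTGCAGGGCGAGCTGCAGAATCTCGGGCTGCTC
The covered part is 76 bases for Lyz1 and 109 for D17H6S56E-5, and the rest of each peak ran into the gene. These covered bases lie before the annotated start, so they are not part of the annotated transcript. TAG, the DNA form of the MSI2 core triplet, occurs 3 times in the covered bases of Lyz1 on the gene strand and 1 time on the other, and 2 and 2 times in those of D17H6S56E-5. The triplet is too common to mark a site: 89.4% of 32851 such 250-base windows hold it on the gene strand and 96.4% on either strand. Those shares are for whole windows, and stretches as short as the covered ones were not counted.

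Each peak carries a score given by the authors, whose unit is not stated. It is read here as reads per 200-nt bin, since most single-bin scores are whole numbers, and the Poisson intervals below rest on that reading. Those intervals are printed for peaks named for their high scores and do not allow for that choice. The WT-only peaks had low scores. Their median was 17 (lower quartile 15, upper quartile 19, range 11.3 to 48.3), against 19.5 for shared peaks (quartiles 16.5 and 24, highest 143). A single bin made up 658 of the 734 (89.6%, exact Clopper-Pearson 95% interval 87.2% to 91.8%), against 66.4% of shared peaks (65.2% to 67.5%). The 2 lists also began at different scores: single-bin peaks started at 15 in WT and at 20 in TRE-Msi2. These are the lowest scores that each list holds, so no counting interval is given for them. Scores under 20 were held by 564 of the 734 WT-only peaks (76.8%, 73.6% to 79.8%), where 53.4% of all WT peaks of that width over protein-coding genes, and 51.0% of the shared ones (49.8% to 52.2%), lay under 20. No single-bin TRE-Msi2 peak scored that low, since 20 is the lowest score among them. Wider TRE-Msi2 peaks did, such as those of 13.7 in Atp7a and 15.7 in Dmbt1, each 400 nt wide. The depths are unknown, so a higher or lower score in one list than in the other cannot be read as more or less binding. Fewer cells of a type cannot be told apart from less RNA per cell either. Where scores of both lists are printed side by side below, they are given as listed. The cut at 20 describes the WT peaks and is not a common threshold of the 2 lists.

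The share of WT peaks without a counterpart fell with the score. It was 16.7% (14.7% to 18.8%) below 16, 14.0% from 16 to under 18, 9.67% from 18 to under 20, 5.94% from 20 to under 24 and 3.12% (2.08% to 4.48%) from 24 to under 28. From 28 upward it was 4.17% (3.07% to 5.53%), 46 peaks of 1102. The highest classes leaned to one strand. From 24 to under 28, 22 of 28 WT-only peaks lay on the minus strand (78.6%, 59.0% to 91.7%), against 46.7% (43.4% to 50.1%) of shared peaks of that class. From 28 upward 40 of the 46 did (87.0%, 73.7% to 95.1%), against 43.5% (40.5% to 46.5%) of the shared ones. Between 16 and 24 the WT-only share on minus was 52.1% to 54.1%. Below a score of 16 the WT-only and shared peaks had 47.6% and 47.8% on the minus strand.

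**Figure D1:**
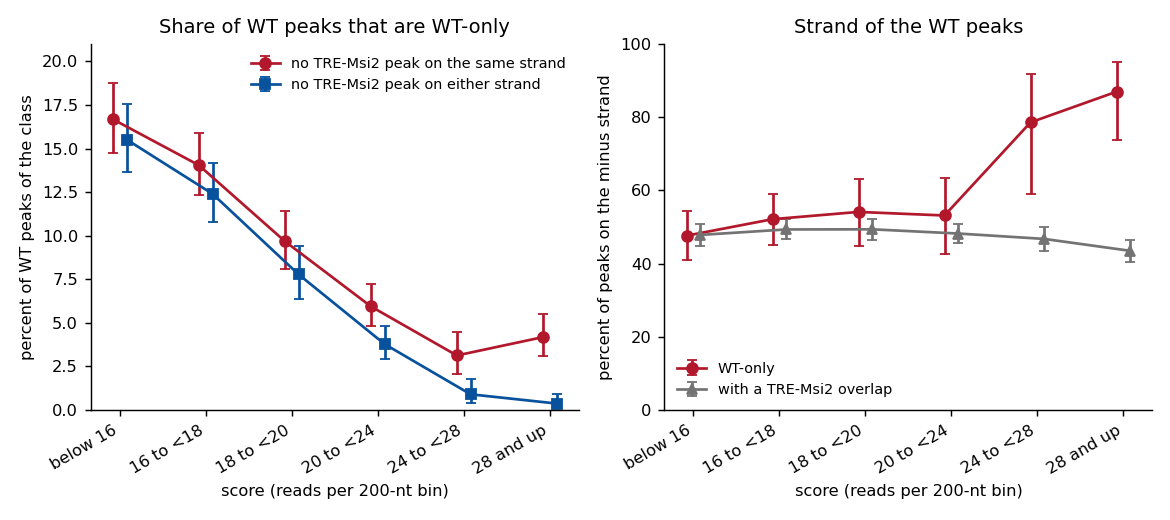
Left, percent of WT peaks under 1000 nt over protein-coding genes that had no TRE-Msi2 overlap, by score class in reads per bin, with the overlap read on the same strand (circles) or on either strand (squares). Right, percent of the WT-only (circles) and shared (triangles) peaks that lay on the minus strand; bars are exact 95% binomial intervals, and in the highest class 87.0% of WT-only and 43.5% of shared peaks were on the minus strand.

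Most of the high-scoring WT-only peaks had a TRE-Msi2 peak at the same place on the other strand. This held for 162 of the 734 (22.1%, 19.1% to 25.2%), for 97 of the 170 that scored at least 20 (57.1%, 49.3% to 64.6%) and for 42 of the 46 that scored 28 or more. In 139 of the 162 the WT peak was on the minus and the TRE-Msi2 peak on the plus strand, and in 23 the reverse. The TRE-Msi2 scores at these places ran from 15.7 to 62, with a median of 30.4. A WT peak labelled minus and a TRE-Msi2 peak labelled plus at the same bin are thus counted here as a WT-only peak although both genotypes had reads called there.

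Peaks on opposite strands rarely met within a list. Within the WT list 0 pairs of peaks on opposite strands shared a base, and within the TRE-Msi2 list 4 pairs did. Scores that were not whole numbers occurred in 67 single-bin WT peaks, all on the plus strand, and in 329 single-bin TRE-Msi2 peaks, of which 328 were on the plus strand. They made up 3.30% of all single-bin TRE-Msi2 peaks and 45 of the 107 single-bin TRE-Msi2 peaks (42.1%) that lay opposite a WT-only peak. How bins on the 2 strands were joined is not stated, and its part in these counts was not tested. Seen from the TRE-Msi2 list, the number was similar and the share smaller. Of 10769 TRE-Msi2 peaks of that width over protein-coding genes, 4794 had no same-strand WT peak. Of those 4794, 152 (3.17%, 2.69% to 3.71%) had a WT peak on the other strand. In 134 of the 152 the TRE-Msi2 peak was the one on plus. Both counts, 152 and the 162 above, come from pairs of peaks on opposite strands, so they are not independent.

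The highest-scoring WT-only peaks belong to this group. Tyms, which encodes thymidylate synthase, the enzyme that makes the thymine nucleotide for DNA synthesis, held the highest score, 48.3, at chr5:30060461-30060860 on the minus strand, the strand of the gene. The TRE-Msi2 list had a peak from 30060461 to 30061060 on the plus strand with a score of 56.4. Dusp22, a dual-specificity phosphatase gene, had a score of 38 (exact Poisson 95% interval 26.9 to 52.2) antisense to the gene, 0.801 kb before its end, and the TRE-Msi2 peak opposite scored 34. Gad2, which encodes a GABA-making decarboxylase, had 37 antisense, opposite 35.5. The base excision repair gene Mbd4 had 36 on its own strand, opposite 38.5, and the complement receptor gene C5ar2 had 36, opposite 38. Crp, the gene of the acute-phase C-reactive protein, had 35 antisense, opposite 43. H2-T23, a nonclassical MHC class I gene with close relatives from which reads may be shared, had 32.7, opposite 44.8. Also among the 20 highest were Camk4 (37), 6030458C11Rik (36), Slc39a14 (34), a peak over Nol3 and 4931428F04Rik (34), the rhodopsin kinase gene Grk1 (33), and, at 32 each, Rgs20, Cenpp with Omd, Atad2, the choline kinase gene Chka, Tmc2, Slc25a51 and the mitochondrial ribosomal protein gene Mrpl35. Of all 20, Fut8 alone had no TRE-Msi2 peak opposite.

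Orientation to the gene set this group apart as well. Gene strand was known for 17492 of 21900 protein-coding genes (79.9%), from RefSeq promoter windows of GRCm38.p6. Of the peaks with a TRE-Msi2 peak opposite that lay in a single gene of known strand, 53 of 110 (48.2%, 38.6% to 57.9%) were on the strand of the gene. Among the other WT-only peaks 382 of 437 were (87.4%, 83.9% to 90.4%), and among shared peaks 4591 of 5472 (83.9%, 82.9% to 84.9%).

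Without these 162, 572 peaks over 568 genes (12.8% of genes with a WT peak) had no TRE-Msi2 peak on either strand, 7.36% of the 7767. Their median score was 16, 499 of the 572 scored under 20 (87.2%, 84.2% to 89.9%), and 45.5% (41.3% to 49.6%) were on the minus strand. Counted this way, the share without a counterpart fell from 15.5% below a score of 16 to 3.77% from 20 to under 24, 0.892% from 24 to under 28 and 0.363% from 28 upward, or 4 of 1102 peaks.

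The place of the nearest TRE-Msi2 peak divided the 572 further. In 38 a TRE-Msi2 peak on the same strand lay directly beside the WT-only one with no base between, in 116 one lay less than 1 kb away, and in 137 the gene had a same-strand TRE-Msi2 peak farther off. In 35 the gene had TRE-Msi2 peaks on the other strand alone, and in 246, which is 33.5% of the 734 (30.1% to 37.1%), it had none. Gaps below 1 kb were mostly short, with 51 peaks 200 nt and 29 peaks 400 nt from the next TRE-Msi2 peak. Each of the 5 groups had a median score of 16. Over all 734, the gene had a TRE-Msi2 peak on the same strand in 342 (46.6%, 42.9% to 50.3%) and on either strand in 488 (66.5%, 62.9% to 69.9%). The 162 with a TRE-Msi2 peak opposite are among the 488 by construction. Without them it was 326 of 572 (57.0%, 52.8% to 61.1%). Of all protein-coding genes 24.9% had one, but genes that already hold a WT peak are no random draw of genes.

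**Figure D2:**
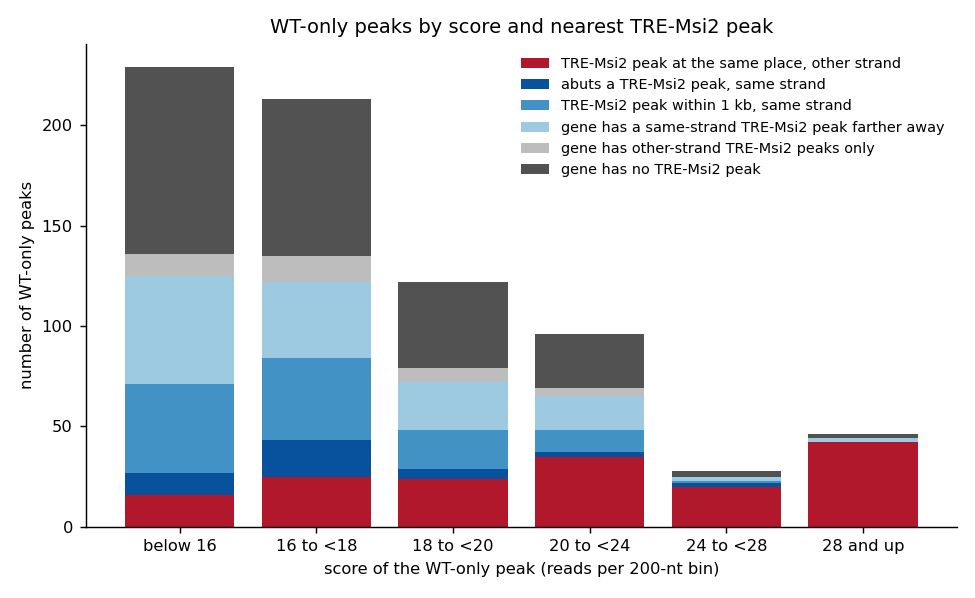
Number of WT-only peaks in 6 classes of score (x axis, reads per 200-nt bin), coloured by where the nearest TRE-Msi2 peak lay. Peaks opposite a TRE-Msi2 peak are 16 of 229 in the lowest class and 42 of 46 in the highest, while peaks in genes with no TRE-Msi2 peak are 93 of 229 and 2 of 46.

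The overlap threshold left few borderline peaks. Nearly all coordinates followed a common grid of bins, and among shared peaks the smallest overlap was 199 bases, in Lrrc75b, and the next was a whole bin of 200. Just outside the threshold, the highest-scoring WT-only peaks that abutted a TRE-Msi2 peak were in Ier3ip1 and Tmem68 (24 each), the ubiquitin ligase gene Rnf115 (22), Hacd3 (21), a gene of very long chain fatty acid synthesis, and the pantothenate kinase gene Pank3 (18). The width limit mattered for 1 peak: Bzw2 held a WT-only peak of 1200 nt with a score of 15.3, and the widest member, in Fam135a, was 800 nt with 17.8.

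WT-only peaks on the strand of their gene gathered at its end. Of the 382 with no TRE-Msi2 peak on either strand, 255 (66.8%, 61.8% to 71.5%) lay in the last 10% of the gene span and 11 (2.88%, 1.45% to 5.09%) in the first 10%. Shared sense peaks had 55.7% (54.2% to 57.1%) and 2.18% (1.78% to 2.64%) there. Since the score could move with the place, single bins scoring under 20 were compared alone: 206 of 310 WT-only peaks (66.5%, 60.9% to 71.7%) and 777 of 1572 shared peaks (49.4%, 46.9% to 51.9%) were in the last 10%. In spans of at least 10 kb the same low single bins lay within the last 2 kb in 52.3% (46.3% to 58.3%) and 40.2% (37.6% to 42.8%) of cases. These intervals did not overlap, but peaks of 1 gene are not independent and no test was made. Spans were also longer for the WT-only bins, with medians of 62.6 kb and 38.6 kb. The end share also varied with the nearest TRE-Msi2 peak: 85.2% (66.3% to 95.8%) of 27 abutting sense peaks, 81.9% (72.0% to 89.5%) of 83 within 1 kb of one, 47.3% (36.9% to 57.9%) of 93 in genes with one farther away and 68.3% (60.5% to 75.4%) of 161 in genes with none lay in the last 10%. Of the antisense peaks, 19 of 55 (34.5%) lay in the last 10%, in genes with a median span of 105 kb.

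**Figure D3:**
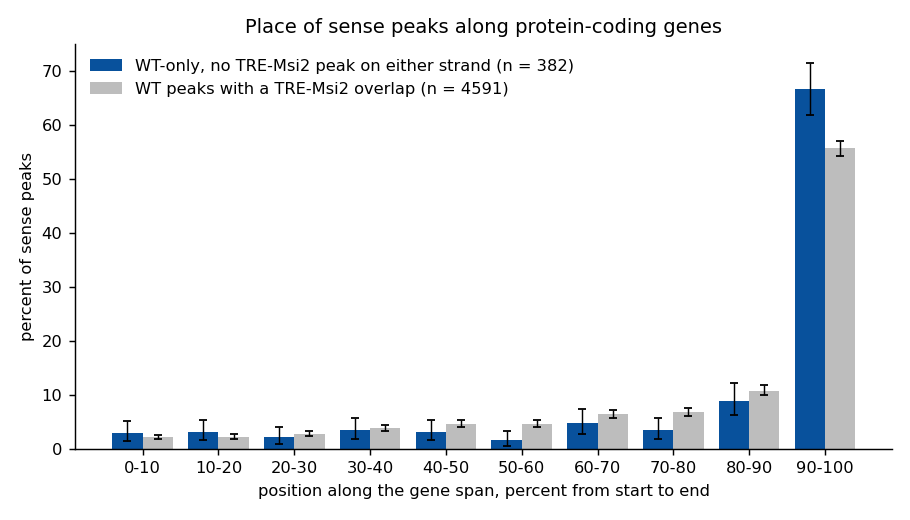
Percent of sense peaks in each 10% of the gene span, from start to end, for 382 WT-only peaks without a TRE-Msi2 peak on either strand and 4591 shared peaks; bars show exact 95% binomial intervals. The last 10% of the span holds 66.8% of the WT-only and 55.7% of the shared peaks.

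Peaks at gene starts were few. In sense genes of at least 10 kb, 5 of 384 WT-only peaks (1.30%, 0.424% to 3.01%) lay in the first 2 kb: in Wipf2 (score 18), an actin regulator gene, in Lsr (17), which encodes a tricellular junction and lipoprotein receptor protein, in the lipopolysaccharide deacylase gene Aoah (16), in the bombesin receptor gene Grpr (16) and in the mitochondrial serine carrier gene Sfxn1 (15). Aoah and Grpr had no TRE-Msi2 peak and the other 3 had 1 or 2.

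In Lyz1 the WT-only peaks alternated with stronger peaks found in both lists. Its WT peaks scored 18 at the start, 23.5 at 1.72 kb from the start, 18 at 3.62 kb and 74.2 at 4.62 kb, near the end of the 5.07 kb span. The TRE-Msi2 list had the second and the fourth, at 28.5 and 76.4. The peaks at the start and at 3.62 kb were the WT-only ones, and both scored lower than either of the matched peaks. The neighbouring paralog Lyz2 likewise had a strong shared peak (39.6) at its end and a WT-only peak of 19, 1.63 kb from its start; reads may be shared between the paralogs.

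Several genes held more than 1 WT-only peak. Of the 703 peaks in a single gene, 607 were the only one of theirs, 40 genes held 2 and 5 held 3 or more. Dmbt1, the gene of a secreted mucosal glycoprotein, had 4, with scores of 17, 17, 15 and 15, among 16 WT peaks. The other 12 were shared, at scores of 19 to 41, and the TRE-Msi2 list had 17 peaks there. The peak starting at chr7:131074087 was 200 nt from a TRE-Msi2 peak.
Slk, a Ste20-like kinase gene, held WT-only peaks of 15, 21 and 15 at 17.0, 63.4 and 65.0 kb from its start, so that 2 of the 3 fell within the last 2 kb of its 65.2 kb span. Its TRE-Msi2 peaks, at 22, 24 and 23.5, all lay 25.2 kb or more before the end, and the last 8 kb of Slk had none. Trim2, a ubiquitin ligase gene, had WT-only peaks of 20, 16 and 19 at 0.140, 0.539 and 3.54 kb from its end, amid 5 shared WT peaks of 17 to 25. Zfp600, a gene in a cluster of similar zinc finger genes that may share reads, had 3 WT-only peaks of 19, 12 and 18 that overlap each other in part, next to shared peaks of 23 and 25.7. Camk4, a calmodulin-dependent kinase gene, had 3 on the minus strand, at 37, 16 and 15, of which the first lay opposite a TRE-Msi2 peak. Of the genes with 2, Atad2 had 32 and 18, Ikbip 30 and 17, the copper transporter gene Atp7a 22.7 and 15, and the phosphatase subunit gene Ppp6c 22 and 15. Both peaks of Ikbip and the higher one of Atad2 and of Atp7a lay opposite a TRE-Msi2 peak.

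**Figure D4:**
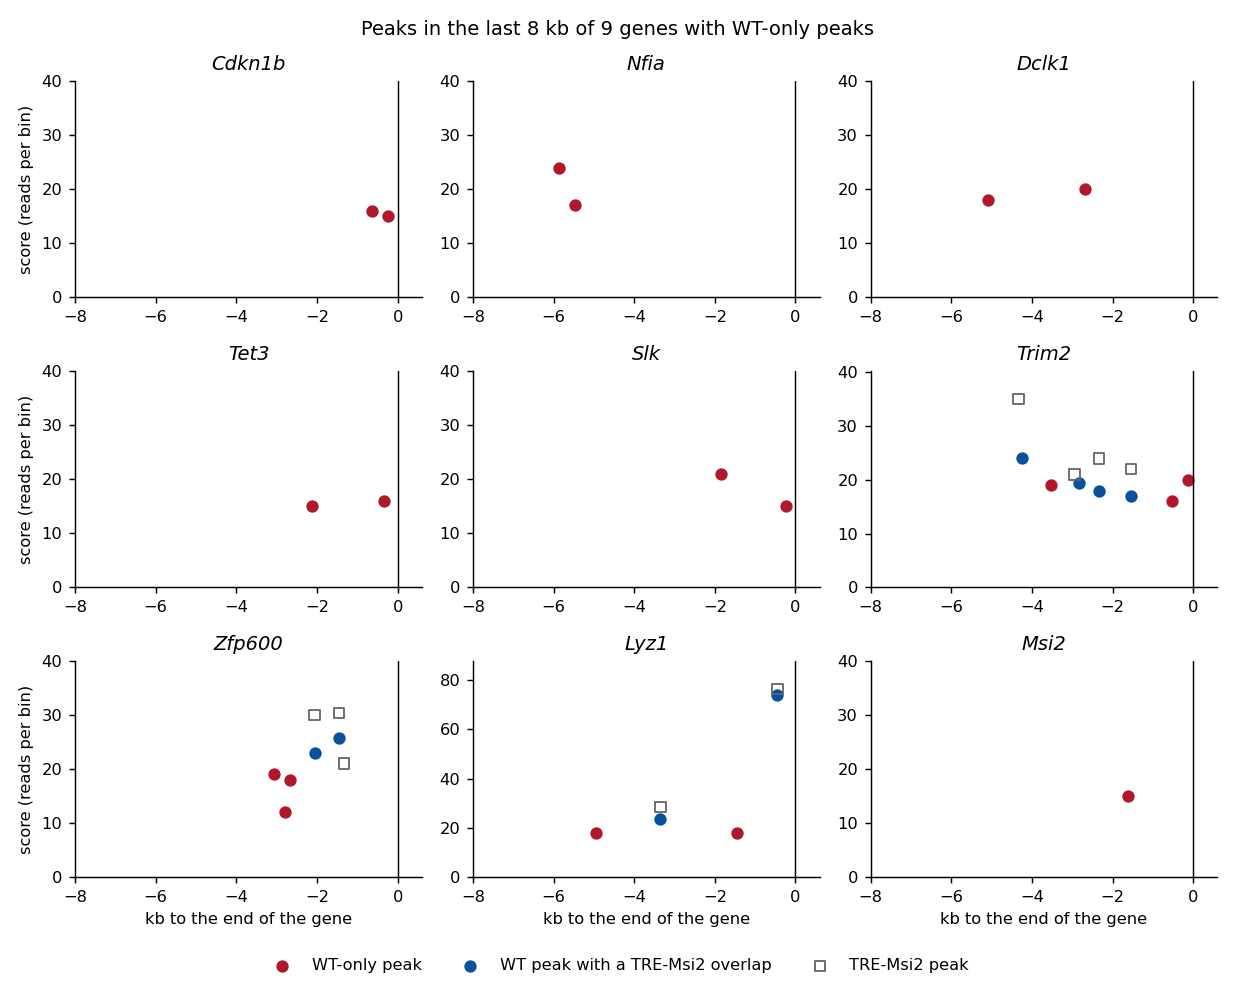
Peaks in the last 8 kb of 9 genes, by distance of the peak's middle to the gene end (x axis, kb) and score (y axis, reads per bin). Red circles are WT-only, blue circles shared WT peaks and open squares TRE-Msi2 peaks. The depths of the lists are unknown, so heights of circles and squares cannot be compared. Cdkn1b, Nfia, Dclk1 and Tet3 show WT-only peaks and no others, while in Trim2, Zfp600 and Lyz1 they lie beside shared peaks.

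Among genes with no TRE-Msi2 peak at all, most rested on a single peak. There were 262 such genes, and 227 of them (86.6%) had 1 WT peak. The share of 1-peak genes among all 4449 genes with a WT peak was not counted. The 86.6% therefore has no background beside it and is not read as particular to these genes. The top-scoring WT-only peak in the 262 genes, at 31 (21.1 to 44.0), was in Fbxo25, a ubiquitin ligase subunit gene. The strand of the gene was unknown, and the nearest same-strand TRE-Msi2 peak was 87.0 kb away. Rasgrf2, a Ras exchange factor gene, had 29 (19.4 to 41.6), on its own strand and 164 kb before its end, in the interior of a 251 kb span. In D430019H16Rik (27) and Lingo2 (24, in a 1255 kb span) the peak lay antisense to the gene. In Tac1, Slc28a2b and Rbbp5 it lay on the gene strand and near the end instead. Tac1, the substance P precursor gene, had 23 at 0.278 kb from its end, the nucleoside transporter gene Slc28a2b had 22 at 0.276 kb, and Rbbp5, a subunit of histone methyltransferase complexes, had 22 at 1.14 kb. Hs3st4, a heparan sulfate sulfotransferase gene, had 22 at 153 kb from its end. Lag3, an inhibitory receptor gene of T cells, had 22.

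Some genes had all their WT peaks unmatched and more than 1 of them. Nfia, a transcription factor gene, had 24 and 17, at 5.87 and 5.47 kb from the end of a 541 kb span. Dclk1, a kinase gene used as a tuft cell marker, had 18 and 20, at 5.09 and 2.69 kb from its end. Cdkn1b, which encodes the cell cycle inhibitor p27, had 16 and 15 at 0.642 and 0.242 kb from its end, and Tet3, a methylcytosine dioxygenase gene, had 16 and 15 at 0.334 and 2.13 kb. All 8 peaks lay on the strand of their gene and toward its end, and of the 8 the scores of 24 and 20 alone reached 20. The genes named here were picked by the naming rules and do not stand for all such genes. Over all WT-only peaks in genes with no TRE-Msi2 peak, 161 of 191 in a single gene of known strand were sense (84.3%, 78.3% to 89.1%). Of those 161, 68.3% lay in the last 10% of the span.

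Of the WT-only peaks with no TRE-Msi2 peak on either strand, 73 (12.8%, 10.1% to 15.8%) scored at least 20. Their genes had no TRE-Msi2 peak in 32 cases and a same-strand one elsewhere in 21; 12 lay within 1 kb of one, 4 abutted one, and in 4 the gene had other-strand peaks alone. The highest was Fut8, the core fucosyltransferase gene, at chr12:77456014-77456413 with a score of 37.5 over 2 bins, 19.8 kb before the end of its 239 kb span. Fut8 had 1 other WT peak, of 30, which was shared, and TRE-Msi2 peaks of 20, 37.8, 23 and 23; the last 2 of these lay 0.684 and 0.0845 kb from the gene end, where WT had none. Vmp1, an autophagy gene of the endoplasmic reticulum, had 29 at chr11:86658299-86658498, 2.60 kb from a TRE-Msi2 peak, in a gene with 9 TRE-Msi2 peaks. The defensin gene Defa40 had 27 at a distance of 0.400 kb; its near copies may share reads. Ide, the insulin-degrading enzyme gene, and the transcription factor gene Bcl11b each had a single WT peak of 20 and no TRE-Msi2 peak, and Hmga1, a chromatin protein gene, had one of 21. The membrane-linker gene Utrn (22), the actin crosslinker gene Actn4 (24) and the cadherin gene Cdh12 (22) had theirs in the interior, 409, 44.7 and 953 kb from the end.

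Lists of related genes were chosen with earlier results of these data in view, so their counts are a description, to be read against the 16.4% of all genes with a WT peak that held a WT-only one. In growth signalling, the kinase gene Akt1, the small GTPase gene Rheb and Rictor, which encodes a subunit of a kinase complex that phosphorylates Akt, each had a single peak, scoring 15, 15 and 16 at 0.668, 0.460 and 2.10 kb from the gene end, and no TRE-Msi2 peak. Smad5 (11.3) and Smad2 (18), transducers of BMP and TGF-beta signals, were 2 of 5 genes of those pathways with a WT peak, Apc (15), the brake on beta-catenin, 1 of 9 Wnt genes, and Adam10 (16), a protease that cleaves Notch, 1 of 4 Notch genes. All of these scored under 20.

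By cell type, the shares lay on both sides of that background. Enterocyte genes had 1 of 23 (4.35%), the lactase gene Lct (16), where 8 WT and 11 TRE-Msi2 peaks lay. Paneth genes had 1 of 10, Lyz1, goblet genes 1 of 7, the mucin gene Muc2 (18), and enteroendocrine genes 1 of 6, Tac1. Dclk1 was the 1 tuft cell gene of 8 with a WT peak. Of stem cell genes 2 of 10 did, Olfm4 (17) between a shared peak of 20 and a wide shared one of 57.5, and Msi2. Immune genes gave 2 of 7 (28.6%), Lag3 and Lyz2, junction genes 1 of 16, the occludin gene Ocln (15), and the 12 stromal and endothelial genes had 0 WT peaks. The Msi2 peak, at chr11:88340899-88341098 with a score of 15, was 1.62 kb from the gene end; the other 5 WT peaks of Msi2, at 16 to 41, were shared, and the closest same-strand TRE-Msi2 peak to it was 53.4 kb away.

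Among genes of RNA and protein metabolism, translation factors had 0 of 18, proteasome subunits 0 of 12 and ribosomal protein genes 2 of 42, Rpl10a (16) and Rpl32, whose peak of 23 also touched another gene and lay opposite a TRE-Msi2 peak. RNA-binding regulators had 5 of 35 (14.3%), close to the background. Pum2, a repressor of translation, had 22 in the interior of the gene, 1.20 kb from a TRE-Msi2 peak of 22, and the splicing factor gene Srsf3 had 16, abutting one. Rbm25 had 15, Msi2 had 15 and Hnrnpd had 23, antisense and opposite a TRE-Msi2 peak of 58. Chromatin and nuclear regulators had 3 of 16 (18.8%), namely Nfia, Rbbp5 and Tet3.

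Larger families were taken by symbol, which also brings in some genes of related name and other function, such as Usp6nl, a Rab regulator. Ubiquitin conjugating enzymes and deubiquitinases had 13 of 37 (35.1%), all with no TRE-Msi2 peak on either strand at the place itself. In Usp6nl, Ube2g1 and Usp3, at 15 each, the gene had no TRE-Msi2 peak. Ube2v2 (22), Usp37 (21, in a span shared with Cnot9), Ube2j1 (15), Usp7 (18), Usp25 (17) and Usp45 (18) lay within 1 kb of one and Otud4 (17) abutted one. The Usp37 peak lay antisense to Usp37, and the Usp24 peak (16) lay antisense to Usp24 and also touched another gene, so both may belong to the other gene. Usp9x, on the X chromosome, had 2, at 15 and 21, among 9 peaks in each list. Zinc finger genes named Zfp had 20 of 90 (22.2%), of which 13 remained with both strands read. Solute carriers had 14 of 119 (11.8%), of which 6 remained; the 8 others included the zinc transporter gene Slc39a14 (34), Slc25a51 (32), the carrier of NAD into mitochondria, and Slc38a6 (30). Rab, Arf and Arl genes had 3 of 34 and Tmem genes 4 of 49. Of 16 synaptic and neuronal genes with a WT peak 6 did, and of these the Lsamp, Nrg3 and Lingo2 peaks lay antisense to the gene while Rasgrf2 lay on its strand.

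By chromosome, the WT-only share of WT peaks under 1000 nt over protein-coding genes ran from 7.39% on chromosome 11 to 13.2% on chromosome 15 among the autosomes, and was 12.6% on X (33 of 261). The 4 such WT peaks on the mitochondrial genome and the 1 on Y all had a same-strand TRE-Msi2 overlap.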

How the data were processed

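MSI2 CLIP-seq was done on 2 WT and 2 TRE-Msi2 libraries. Use of cutadapt, TopHat and 2 builds, mm9 and mm10, is listed in the submitters' processing notes. The names of the deposited lists point to removal of duplicates, Piranha peak calling and merging; settings and versions were not stated. The authors deposited 1 peak list per genotype, whose column 5 joins 2 numbers per peak, taken as a score and a p-value; the score was used as given. Coordinates were read as mm10 and are printed from 1. Overlaps, gene spans (RefSeq, GRCm38.p6) and distances were computed in Python 3.11.15 with pandas 2.3.3 and numpy 2.4.6, and exact Clopper-Pearson and Poisson 95% intervals with scipy 1.17.1. The choice of peaks was checked against a direct count on simulated intervals. Exons and untranslated regions were not used here, and some items are not reported here. The members and gene lists were chosen with earlier results of these data known. Named peaks were drawn from the 20 highest-scoring ones, the 10 highest in genes without TRE-Msi2 peaks, the 10 genes with most WT-only peaks, members of the gene lists, and the top peaks at gene starts, gene ends and thresholds. Peaks named from those scoring at least 20 without a TRE-Msi2 peak on either strand were picked after their values were seen, as were list genes beyond the 4 highest-scoring of a list. Alternatives changed the width, score, overlap, strand, list length and gene assignment.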

Additional observations from a re-analysis of the deposited data

How the results depend on the processing

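Over 10 alternatives to 5 results, 32 of the 50 values stayed within 1.5 times the count or within the 95% interval of the value given, and 18 did not. The number of WT-only peaks was 734, and 658 to 738 with other width, 50% coverage and gap rules or with single-gene peaks alone. It was 572 with TRE-Msi2 peaks on either strand counted, 213 with the upper 50% of WT scores, 435 on the strand of the gene alone and 2126 when the lowest-scoring TRE-Msi2 peaks were dropped until both lists were equally long. It was 170 with WT scores of at least 20, an alternative chosen after seeing the data. The share of peaks in genes with a same-strand TRE-Msi2 peak (46.6%) was 35.7% in the upper 50%, 34.1% at scores of at least 20, 50.9% with either strand counted and 58.4% with equal lengths. The share in the last 10% of the span (64.4% of 435) was 57% in the upper 50% and 55% at scores of at least 20. The median score (17) was 22 under each of those 2 limits, by their construction. The share within 1 kb of a same-strand TRE-Msi2 peak (22.9%) was 15% in the upper 50%, 14.7% at scores of at least 20, 18.7% with gaps under 200 nt counted as overlap, 26.9% with either strand, 26.5% with equal lengths and 26.2% on the gene strand. No paired analysis was possible because each genotype has 1 pooled list, and for the same reason no library could be left out. Depth limits every comparison, since the lists start at different scores and their depths are unknown.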
